A study of Mus musculus with 12 samples.

Results

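Polycomb repressive complex 2 (PRC2), the DNA methyltransferases and the TET dioxygenases were followed here as 10 genes: Ezh1, Ezh2, Eed and Suz12 (PRC2), Dnmt1, Dnmt3a and Dnmt3b, and Tet1, Tet2 and Tet3. They were chosen by symbol from the 24421 genes of the count tables, and all 10 were among the 12878 genes that passed the filter on low counts. RNA came from B220+ spleen cells of 12 mice aged 4 to 5 weeks, 1 mouse per library and 3 mice per genotype. The first group was EuMyc Max KO, mice with the EuMyc transgene and a conditional knockout of Max. The second was EuMyc, with the transgene and Max WT. The third was Max KO, with the conditional knockout and no transgene, and the last was WT, with Max WT and no transgene. EuMyc places Myc under the immunoglobulin heavy chain enhancer, so that it is overexpressed in B lineage cells before lymphoma appears, and the series describes these cells as premalignant. MAX is the partner that MYC needs to bind DNA. The Cre driver of the conditional knockout is not given in the sources used here.

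EZH2 and EZH1 are alternative catalytic subunits of PRC2, which methylates a lysine on the tail of histone H3 and keeps developmental genes silent. EED reads that mark and SUZ12 holds the complex together, and both are needed for activity. Ezh2 is known as the form of dividing cells, among them cycling B cell progenitors and germinal centre B cells, and Ezh1 as the form of resting cells. DNMT1 copies DNA methylation onto the new strand at each replication, whereas DNMT3A and DNMT3B can methylate unmethylated sites. TET1, TET2 and TET3 oxidise methylated cytosine and so open the way to its removal. Loss of TET2 and TET3 in mouse B cells is known to impair their differentiation.

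Because MYC and MAX bind the E-box CACGTG and E2F factors bind sites such as TTTGGCGC, the promoters of the 10 genes are shown first where they hold such letters. RefSeq promoters on GRCm38.p6, from 250 bases before to 50 bases after an annotated start, gave 14 windows for the 10 genes. The E-box CACGTG, searched on both strands, was present in 1 of the 10 genes, Dnmt3a. The E2F form TTTGGCGC was present in 2, Ezh2 and Dnmt1, and the form TTTCCCGC in 1, Suz12, again on both strands. The 2 E2F forms do not match each other's letters. Among all 32851 mouse promoter windows of that length, 7.15% held CACGTG, 0.514% held TTTGGCGC and 1.07% held TTTCCCGC. On mm10 (GENCODE vM21) all 10 genes are protein coding, with Ezh2 at chr6:47530139-47595341 and Ezh1 at chr11:101191115-101226463 on the minus strand, Dnmt1 at chr9:20907209-20959888 on the minus strand and Dnmt3a at chr12:3806007-3914443 on the plus strand. Exons on the opposite strand overlap 5 of them, by 174 bases in Ezh2, 261 in Eed, 178 in Suz12, 133 in Dnmt3a and 43 in Tet2. A match describes the letters of a window and says nothing about binding.

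The Ezh2 promoter (chr6:47595001-47595150, minus strand, bases -120 to 30 around the start) is printed because Ezh2 had the widest range over the groups. Capitals mark the E2F form.
Ezh2: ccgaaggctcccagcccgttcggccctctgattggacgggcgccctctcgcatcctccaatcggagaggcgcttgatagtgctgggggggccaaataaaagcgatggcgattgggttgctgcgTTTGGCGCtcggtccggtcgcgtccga
The Ezh1 promoter (chr11:101226434-101226583, minus strand, the same span) is shown beside it because Ezh1 went the other way, and it holds none of the 3 motifs, hence no capitals.
Ezh1: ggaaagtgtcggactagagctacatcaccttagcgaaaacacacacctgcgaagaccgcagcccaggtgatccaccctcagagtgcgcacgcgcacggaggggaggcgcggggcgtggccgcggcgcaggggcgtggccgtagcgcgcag
The remaining matches are given as 30 bases each, with the motif in capitals. The motif starts at position 4 relative to the transcription start in Ezh2, -219 in Suz12, 34 in Dnmt1 and -80 in Dnmt3a. They lie at chr11:79992876-79992905 on the plus strand for Suz12, chr9:20952574-20952603 on the minus strand for the third Dnmt1 start, and chr12:3891652-3891681 on the plus strand for the third Dnmt3a start.
Suz12: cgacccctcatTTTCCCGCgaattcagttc
Dnmt1: gcgcggggcagcgTTTGGCGCgggctgtgc
Dnmt3a: tccagtggggccCACGTGacctggagttct

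Library depth ran from 14973332 to 21671601 reads assigned to genes. Max itself was only modestly lower in the libraries labelled as knockout. It stood at 108, 104 and 102 CPM (read counts divided by TMM-scaled library size, the usual depth-normalised unit) in EuMyc Max KO against 126, 127 and 130.0 CPM in EuMyc (log2 fold change -0.29, SE 0.0781, adjusted p = 0.00462), and at 102, 102 and 99.8 CPM in Max KO against 139, 110 and 108 CPM in WT (-0.23, SE 0.0784, adjusted p = 0.0623, not called). Which exons the knockout removes, and so whether this count checks it, is not given. Myc averaged 522 ± 39.5 CPM in EuMyc Max KO, 1010.4 ± 37.1 CPM in EuMyc, 126 ± 8.37 CPM in Max KO and 106 ± 9.37 CPM in WT (SD, n = 3 each). B lineage markers were high in every library, with summed levels of 8 genes of 14289.9 to 17079 CPM in EuMyc Max KO, 6064 to 7614 CPM in EuMyc, 19111 to 19512 CPM in Max KO and 19389 to 21869 CPM in WT. Levels of Xist and of 4 Y-linked genes showed 6 male and 6 female mice. All 3 EuMyc mice were male, and each other group held 1 male and 2 females, which touches every comparison with EuMyc. All levels are shares of the RNA sequenced, and in such bulk samples fewer cells of a type and less RNA per cell cannot be told apart.

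**Figure D1:**
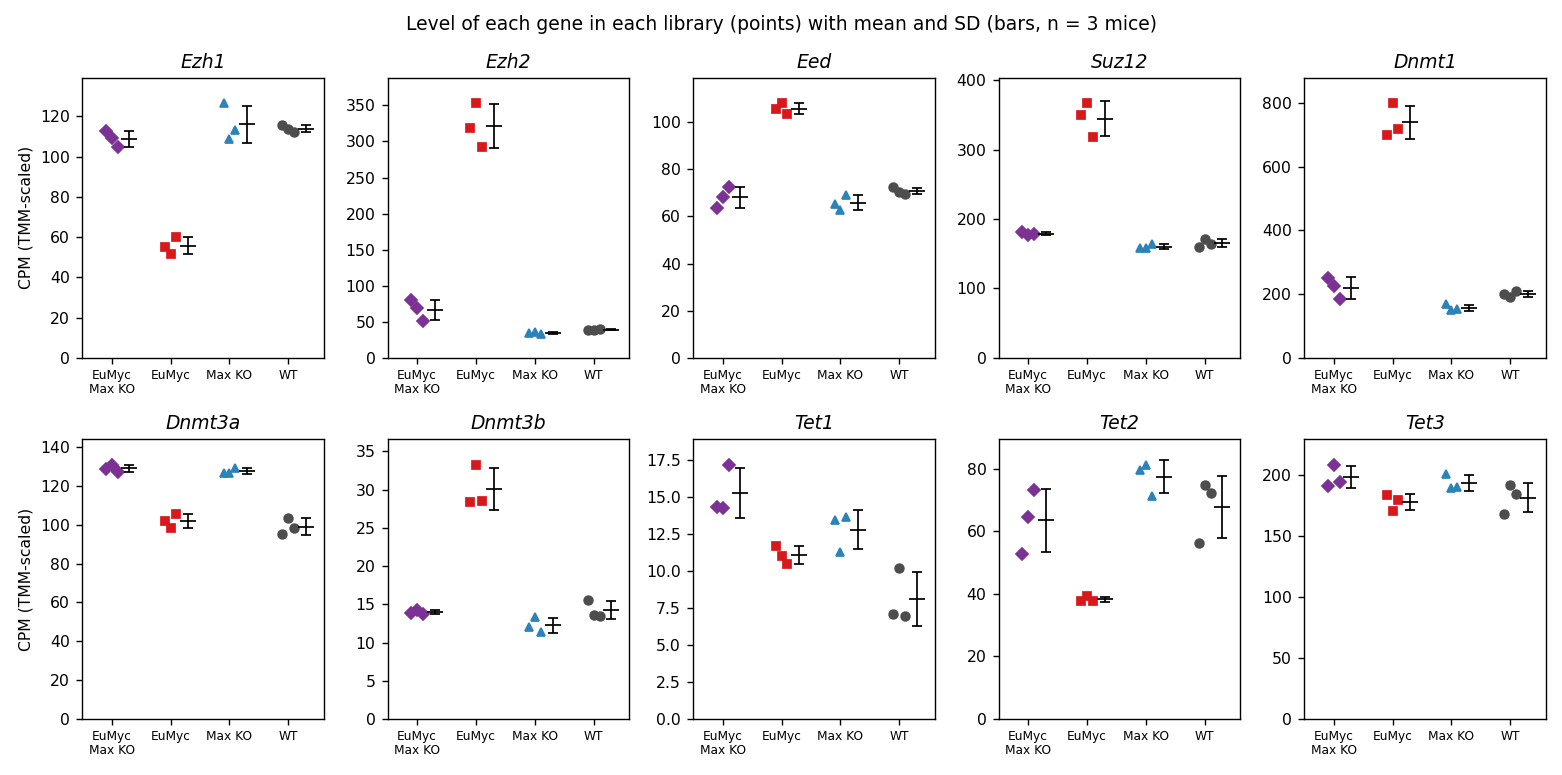
Level of each of the 10 genes in CPM (linear axis from 0, TMM-scaled) in the 12 libraries, with groups from left to right EuMyc Max KO, EuMyc, Max KO and WT; points are libraries and bars are the mean ± SD of 3 mice. EuMyc stands apart from the other 3 groups for Ezh1, Ezh2, Eed, Suz12, Dnmt1, Dnmt3b and Tet2, whereas Dnmt3a splits by Max genotype.

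Ezh2 was the member that differed most between genotypes. It stood at 79.6, 68.6 and 51.6 CPM in EuMyc Max KO, 319, 353 and 293 CPM in EuMyc, 34.3, 35.3 and 33.0 CPM in Max KO, and 37.9, 38.5 and 39.8 CPM in WT. The 4 groups did not overlap, and their order from low to high was Max KO, WT, EuMyc Max KO, EuMyc. Ezh2 rose 8.30-fold in EuMyc against WT (log2 fold change 3.05, SE 0.132, adjusted p = 2.21e-09, edgeR quasi-likelihood). In EuMyc Max KO it was 0.207 of the EuMyc level (log2 fold change -2.27, SE 0.127, adjusted p = 1.8e-08). It still stayed above Max KO (0.96, SE 0.128, adjusted p = 0.000716) and above WT (0.78, SE 0.127, adjusted p = 0.0017). Between Max KO and WT the difference did not pass the test (-0.18, SE 0.13, adjusted p = 0.382), with a 95% interval of -0.48 to 0.12 on the log2 scale. The summed level of 13 proliferation markers had the same order of groups as Ezh2, as given below.

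Ezh1 followed the opposite pattern. Its levels were 113, 109 and 105 CPM in EuMyc Max KO, 55.2, 51.7 and 60.0 CPM in EuMyc, 126, 109 and 113 CPM in Max KO, and 116, 114 and 112 CPM in WT. EuMyc was the low group, with no overlap, and the other 3 groups overlapped one another. Ezh1 fell to 0.488 of the WT level in EuMyc (log2 fold change -1.03, SE 0.0693, adjusted p = 2.8e-08). With Max deleted it rose relative to EuMyc (0.97, SE 0.0692, adjusted p = 5.53e-08), and EuMyc Max KO did not differ from WT beyond the spread (-0.06, adjusted p = 0.517).

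Suz12 and Eed, the scaffold and the reader of the complex, rose with the transgene by less than Ezh2. Suz12 was at 181, 177 and 179 CPM in EuMyc Max KO, 349.9, 367 and 318 CPM in EuMyc, 159, 158 and 164 CPM in Max KO, and 159, 171 and 164 CPM in WT. Eed was at 63.5, 68.1 and 72.6 CPM in EuMyc Max KO, 106, 108 and 104 CPM in EuMyc, 65.5, 62.8 and 69.2 CPM in Max KO, and 72.4, 70.6 and 69.8 CPM in WT. For both genes EuMyc was the high group with no overlap. In EuMyc against WT, Suz12 rose 2.09-fold (log2 fold change 1.06, SE 0.0576, adjusted p = 4.43e-09) and Eed 1.49-fold (0.58, SE 0.0605, adjusted p = 1.82e-06). EuMyc Max KO was below EuMyc for Suz12 (-0.95, SE 0.0574, adjusted p = 1.38e-08) and for Eed (-0.64, SE 0.0605, adjusted p = 7.9e-07). Suz12 in EuMyc Max KO lay just above all Max KO and WT libraries, a gap that did not pass the test (0.16 against Max KO, adjusted p = 0.0812, and 0.12 against WT, adjusted p = 0.146).

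Dnmt1, the maintenance methyltransferase, had the second widest range. It stood at 249, 227 and 183 CPM in EuMyc Max KO, 699, 799 and 719 CPM in EuMyc, 168, 150.2 and 154 CPM in Max KO, and 201, 191 and 209 CPM in WT. Max KO was the lowest group, WT and EuMyc Max KO overlapped, and EuMyc was the highest. Dnmt1 rose 3.69-fold in EuMyc against WT (log2 fold change 1.88, SE 0.102, adjusted p = 4.29e-09) and fell in EuMyc Max KO against EuMyc (-1.75, SE 0.101, adjusted p = 9.12e-09). It remained above Max KO in EuMyc Max KO (0.48, SE 0.0993, adjusted p = 0.00686). EuMyc Max KO against WT did not pass the test (0.13, adjusted p = 0.345), but did without EuMyc Max KO library 3 (0.25, adjusted p = 0.0286). Without the transgene Dnmt1 was 0.785 of the WT level in Max KO (-0.35, SE 0.0993, adjusted p = 0.0343). That last call rested on every library of both groups: leaving out any 1 of the 6 gave an adjusted p between 0.053 and 0.112.

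Dnmt3a, a de novo methyltransferase, split by Max genotype and not by the transgene. Its levels were 129, 131 and 127 CPM in EuMyc Max KO, 102, 98.4 and 105 CPM in EuMyc, 126, 127 and 129 CPM in Max KO, and 95.1, 104 and 98.3 CPM in WT. The groups with deleted Max did not overlap the groups with intact Max, while within each Max genotype the groups with and without the transgene overlapped. Dnmt3a was 1.29-fold higher in Max KO than in WT (log2 fold change 0.36, SE 0.0492, adjusted p = 0.000691) and also higher in EuMyc Max KO than in EuMyc (0.34, SE 0.049, adjusted p = 3.64e-05). The difference between these effects was -0.03 (SE 0.0693, adjusted p = 0.778), with a 95% interval of -0.18 to 0.14. EuMyc against WT differed by 0.04 (SE 0.0492, adjusted p = 0.46), with an interval of -0.07 to 0.15. The increase in Max KO passed the test under every alternative, each library left out in turn included. CACGTG, printed above, was held by only the third of the 3 Dnmt3a promoter windows. Of all 32851 mouse promoter windows 7.15% held it, and a match says nothing about binding. Dnmt3aos is the antisense gene that overlaps it, and the strand setting of the counting is not given.

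Dnmt3b, the second de novo enzyme, was the least abundant methyltransferase and followed Dnmt1 rather than Dnmt3a. It was at 13.8, 14.3 and 13.8 CPM in EuMyc Max KO, 28.4, 33.3 and 28.6 CPM in EuMyc, 11.97, 13.3 and 11.4 CPM in Max KO, and 15.6, 13.6 and 13.5 CPM in WT. EuMyc stood apart at the high end and Max KO, by a small gap, at the low end. EuMyc was 2.12-fold above WT (log2 fold change 1.08, SE 0.102, adjusted p = 6.6e-07), and EuMyc Max KO was below EuMyc (-1.11, SE 0.102, adjusted p = 5.75e-07). Between Max KO and WT the difference was -0.22 (SE 0.104, adjusted p = 0.181).

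Tet2 was low in EuMyc. It stood at 52.9, 64.5 and 73.1 CPM in EuMyc Max KO, 37.7, 39.2 and 37.8 CPM in EuMyc, 79.7, 81.4 and 71.4 CPM in Max KO, and 56.4, 75.0 and 72.2 CPM in WT. The EuMyc libraries lay below all others, which overlapped. Tet2 in EuMyc was 0.564 of the WT level (log2 fold change -0.83, SE 0.122, adjusted p = 4.89e-05), and it was higher in EuMyc Max KO than in EuMyc (0.73, SE 0.122, adjusted p = 0.000138). EuMyc Max KO against Max KO did not pass the test (-0.29, adjusted p = 0.131), but did without EuMyc Max KO library 3 (-0.40, adjusted p = 0.0249).

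Tet1 was the least abundant of the 10 genes per kilobase of exon, and rose with loss of Max. In mean CPM Tet1 lay below Dnmt3b in WT and EuMyc, but above it in Max KO and EuMyc Max KO. It was at 14.3, 14.3 and 17.2 CPM in EuMyc Max KO, 11.7, 10.99 and 10.4 CPM in EuMyc, 13.4, 11.2 and 13.6 CPM in Max KO, and 7.11, 10.2 and 6.97 CPM in WT. WT was the lowest group and EuMyc Max KO the highest, with EuMyc and Max KO overlapping between them. The rise in EuMyc Max KO against WT was the widest (log2 fold change 0.91, SE 0.157, adjusted p = 0.00178). Max KO against WT (0.66, SE 0.158, adjusted p = 0.0167) was called, but not without WT library 1 or 3 or Max KO library 1 or 3, where the adjusted p went up to 0.0757. EuMyc against WT (0.45, SE 0.158, adjusted p = 0.0214) was lost without WT library 1 (0.0831), WT library 3 (0.0919) or EuMyc library 1 (0.0637), under 2 other scalings (0.0958 and 0.0772) and with sex as a term (0.0995). EuMyc Max KO against EuMyc (0.46, SE 0.154, adjusted p = 0.0152) was lost without EuMyc library 3 (0.0504) or EuMyc Max KO library 3 (0.0582).

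Tet3 was the most abundant TET gene and varied least. It was at 191, 208 and 194 CPM in EuMyc Max KO, 184, 170.5 and 179 CPM in EuMyc, 201, 189 and 190.5 CPM in Max KO, and 168, 192 and 184 CPM in WT. Each group overlapped its neighbour in the order of levels, although EuMyc Max KO at the top did not overlap EuMyc at the bottom. EuMyc Max KO was above EuMyc by 0.16 on the log2 scale (SE 0.0605, adjusted p = 0.033), a call that was lost without EuMyc library 2 (0.127), EuMyc library 3 (0.0587) or EuMyc Max KO library 2 (0.139), with sex as a term (0.0654) and with no filter on low counts (0.0644). EuMyc against WT differed by -0.03 (SE 0.0605, adjusted p = 0.693), with a 95% interval of -0.17 to 0.11.

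Read by comparison, all 10 genes were called in EuMyc Max KO against EuMyc, 5 higher (Ezh1, Dnmt3a, Tet1, Tet2 and Tet3) and 5 lower (Ezh2, Eed, Suz12, Dnmt1 and Dnmt3b), where 73.7% of all tested genes were called, 37.6% higher and 36.1% lower. In EuMyc against WT 8 were called, 6 higher and 2 lower, where 71.6% of tested genes were, 36.7% higher and 34.9% lower. Against so high a background these 2 counts say little about the 10 genes as a set, and the sizes and directions carry the description. In Max KO against WT 3 were called (Dnmt3a and Tet1 higher, Dnmt1 lower), where 15% of tested genes were, 7.27% higher and 7.74% lower, and without WT library 1 or 3 or Max KO library 1 or 3 only Dnmt3a remained. In EuMyc Max KO against Max KO 2 were called, Ezh2 and Dnmt1, both higher, where 14.4% were called and 10.7% were higher. In EuMyc Max KO against WT 3 were called, Ezh2, Dnmt3a and Tet1, all higher, where 27.8% were called and 17% were higher. Counting instead the genes whose libraries did not overlap between groups gave 10 members in EuMyc Max KO against EuMyc (75.9% of tested genes), 8 in EuMyc against WT (77.4%), 6 in Max KO against WT (38.1%), 5 in EuMyc Max KO compared with Max KO (32.3%) and 4 in EuMyc Max KO compared with WT (41.8%). The members that did not overlap in Max KO against WT were Dnmt3a and Tet1 above WT and Ezh2, Eed, Dnmt1 and Dnmt3b below it. The median log2 fold change of the 10 genes was 0.51 in EuMyc against WT, beside 0.01 over all tested genes, and -0.24 in EuMyc Max KO against EuMyc, beside 0.03. These comparisons share groups, so that their values are not independent of one another.

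**Figure D2:**
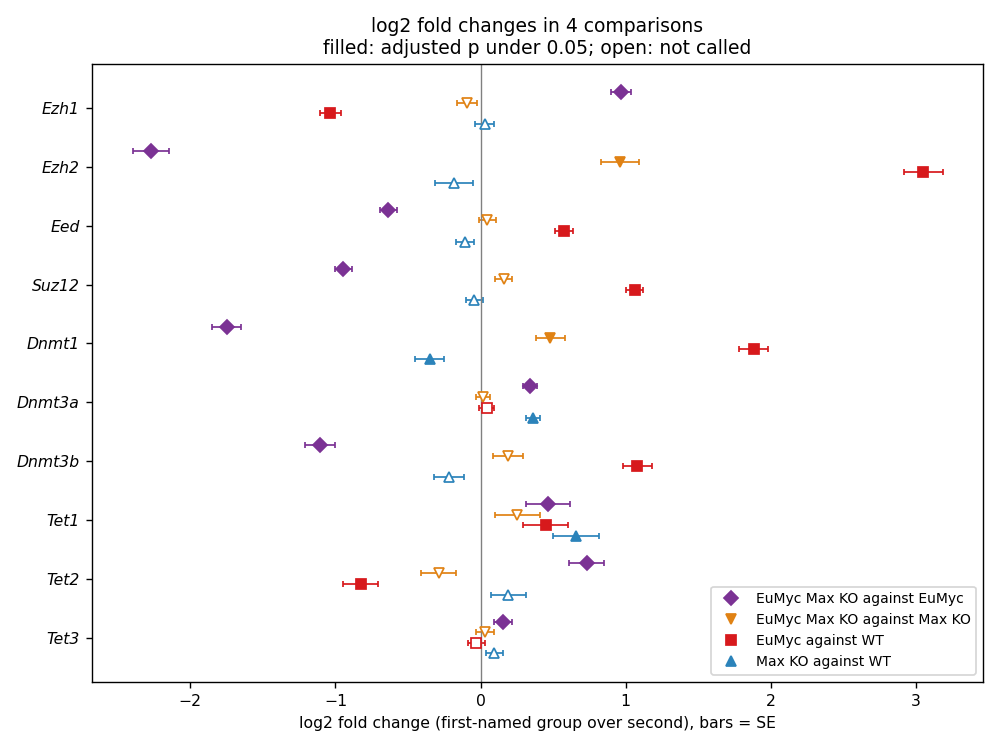
Log2 fold change ± SE of the 10 genes in 4 comparisons: EuMyc Max KO with EuMyc, EuMyc Max KO with Max KO, EuMyc with WT and Max KO with WT; filled points have an adjusted p under 0.05. Ezh2 runs from 3.05 in EuMyc against WT to -2.27 in EuMyc Max KO against EuMyc, and Dnmt3a is filled in both comparisons of deleted with intact Max.

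Whether loss of Max acted differently with and without the transgene was tested as an interaction. It passed for 7 of the 10 genes, where 55.7% of all tested genes passed, 27.8% upward and 27.9% downward. The effect of losing Max was more negative in EuMyc cells than in cells without the transgene for Ezh2, Dnmt1, Suz12, Dnmt3b and Eed. The differences were -2.09 (SE 0.179, adjusted p = 2.17e-06) for Ezh2 and -1.40 (SE 0.14, adjusted p = 3.89e-06) for Dnmt1. For Suz12 the difference was -0.90 (SE 0.0811, adjusted p = 1.63e-06), for Dnmt3b -0.89 (SE 0.145, adjusted p = 0.000205) and for Eed -0.53 (SE 0.0857, adjusted p = 0.000194). The effect was more positive in EuMyc cells for Ezh1 (0.94, SE 0.0968, adjusted p = 4.8e-06) and Tet2 (0.54, SE 0.171, adjusted p = 0.0172). The interaction did not pass for Dnmt3a, Tet1 (-0.19, adjusted p = 0.47) or Tet3 (0.06, adjusted p = 0.567).

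Levels per kilobase of exon allow the members to be compared with each other within a family. In RPKM (CPM per kilobase of exon, over all annotated exons), Ezh2 stood at 9.97 ± 2.12 in EuMyc Max KO, 48.2 ± 4.499 in EuMyc, 5.12 ± 0.169 in Max KO and 5.80 ± 0.142 in WT, and Ezh1 at 14.6, 7.48, 15.6 and 15.3 in the same order (n = 3 each). The ratio of the catalytic subunits, Ezh2 over Ezh1, was therefore 0.678 ± 0.121 in EuMyc Max KO, 6.50 ± 1.09 in EuMyc, 0.330 ± 0.0298 in Max KO and 0.379 ± 0.0150 in WT. By all-exon length Ezh1 exceeded Ezh2 in every library of EuMyc Max KO, Max KO and WT, and Ezh2 exceeded Ezh1 in every EuMyc library. With the length of the longest transcript in place of all exons the ratios were 0.919, 8.80, 0.446 and 0.514, in the same order of groups. Suz12 was the most abundant subunit by all-exon length, at 36.2 RPKM in EuMyc Max KO, 69.7 RPKM in EuMyc, 32.4 RPKM in Max KO and 33.4 RPKM in WT. By the longest transcript this no longer held in EuMyc, where Ezh2 was at 115 RPKM and Suz12 at 78.8 RPKM. Among the 4 PRC2 genes Suz12 supplied a near constant share of the summed RPKM (46.1%, 45.6%, 46.1% and 45.7% in EuMyc Max KO, EuMyc, Max KO and WT), while Ezh2 supplied 12.7%, 31.4%, 7.29% and 7.95%.

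Within the methyltransferases, Dnmt1 stood at 29.8 ± 4.59 RPKM in EuMyc Max KO, 100.1 ± 7.17 RPKM in EuMyc, 21.3 ± 1.24 RPKM in Max KO and 27.1 ± 1.24 RPKM in WT. Dnmt3a stood at 7.75 RPKM in EuMyc Max KO, 6.13 RPKM in EuMyc, 7.66 RPKM in Max KO and 5.95 RPKM in WT. Maintenance over de novo enzyme, Dnmt1 over Dnmt3a, was 3.84 ± 0.564 in EuMyc Max KO, 16.4 ± 1.67 in EuMyc, 2.78 ± 0.179 in Max KO and 4.57 ± 0.364 in WT, and by the longest transcript 2.81, 11.98, 2.04 and 3.34. Max KO had the lowest ratio, below WT in every library, since Dnmt3a was higher and Dnmt1 lower there. Dnmt3b over Dnmt3a was 0.353 ± 0.00218 in EuMyc Max KO, 0.964 ± 0.1198 in EuMyc, 0.313 ± 0.0273 in Max KO and 0.469 ± 0.0573 in WT. Tet3 supplied most of the summed TET level, at 71.5% in EuMyc Max KO, 78.1% in EuMyc, 68.2% in Max KO and 70.6% in WT. Tet2 over Tet3 was 0.317 ± 0.0501 in EuMyc Max KO, 0.213 ± 0.0129 in EuMyc, 0.396 ± 0.0273 in Max KO and 0.369 ± 0.0321 in WT. Summed over each family, EuMyc held the highest PRC2 (153 ± 9.46 RPKM) and methyltransferase levels (112 ± 7.55 RPKM) and the lowest mean TET level (13.6 ± 0.369 RPKM), against 73.0 ± 0.984, 35.9 ± 1.07 and 15.4 ± 1.39 RPKM in WT. The TET sums of EuMyc and WT libraries overlapped.

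**Figure D3:**
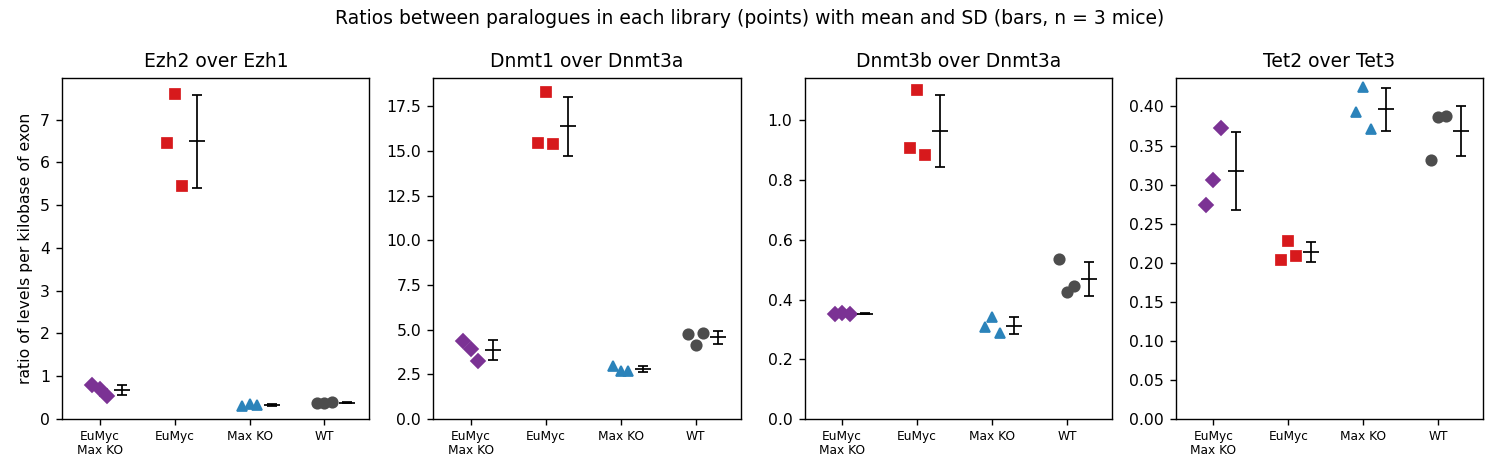
Ratios of RPKM between family members (Ezh2 to Ezh1, Dnmt1 to Dnmt3a, Dnmt3b to Dnmt3a and Tet2 to Tet3) in each library, with groups from left to right EuMyc Max KO, EuMyc, Max KO and WT and bars at the mean ± SD of 3 mice. By all-exon length Ezh2 to Ezh1 averages 6.50 in EuMyc and lies below 1 in the other groups. By the longest transcript its mean in EuMyc Max KO is 0.919.

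The accessory subunits of PRC2 did not move as one. Of 11 listed genes 10 were tested, and 7 rose and 3 fell in EuMyc against WT (median log2 fold change 0.49), while 2 rose and 6 fell in EuMyc Max KO against EuMyc (median -0.54). Of all tested genes 71.6% were called in the first of these comparisons, 36.7% higher, and 73.7% in the second, 36.1% lower. Rbbp4, a histone chaperone shared with other complexes, averaged 295 ± 28.5 CPM in EuMyc Max KO, 625 ± 21.7 CPM in EuMyc, 236 ± 7.58 CPM in Max KO and 260.2 ± 7.30 CPM in WT. Its close relative Rbbp7 averaged 170.0 ± 3.74 CPM in EuMyc Max KO, 377 ± 21.9 CPM in EuMyc, 154 ± 3.94 CPM in Max KO and 167 ± 6.01 CPM in WT. Both rose in EuMyc (log2 fold changes 1.26 and 1.17 against WT) and both were lower in EuMyc Max KO (-1.08 and -1.15 against EuMyc). The Polycomb-like subunits Phf1 and Phf19 went in opposite directions. Phf1 averaged 85.3 ± 3.64 CPM in EuMyc Max KO, 23.3 ± 3.45 CPM in EuMyc, 129.9 ± 3.95 CPM in Max KO and 138 ± 2.08 CPM in WT, whereas Phf19 averaged 18.2 ± 0.509, 36.7 ± 2.47, 15.8 ± 1.32 and 15.3 ± 1.04 CPM in the same order. Phf1 was thus lower in EuMyc than in WT (-2.57, SE 0.0886, adjusted p = 2.78e-10) and Phf19 higher (1.26, SE 0.0915, adjusted p = 5.77e-08). Phf1 in EuMyc Max KO stayed below Max KO (-0.61, SE 0.0823, adjusted p = 0.000622), whereas for Ezh1 that difference was -0.09 and did not pass (adjusted p = 0.39). Epop, listed in the files as E130012A19Rik, was lower in EuMyc Max KO (7.28 ± 0.299 CPM) than in EuMyc (29.1 ± 0.424 CPM; -2.00, SE 0.167, adjusted p = 2.33e-07).

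PRC1 compacts Polycomb chromatin and ubiquitinates histone H2A. Of its 17 listed genes 6 rose and 6 fell in EuMyc against WT, and 6 rose and 7 fell in EuMyc Max KO against EuMyc, near the shares called among all genes (71.6% and 73.7%). The chromobox gene Cbx2, a reader of the PRC2 mark, followed Ezh2, with 11.3 ± 1.52 CPM in EuMyc Max KO, 52.0 ± 7.79 CPM in EuMyc, 5.80 ± 0.952 CPM in Max KO and 5.17 ± 0.112 CPM in WT. It rose in EuMyc against WT (log2 fold change 3.33, SE 0.153, adjusted p = 1.36e-09) and stayed above Max KO in EuMyc Max KO (0.96, SE 0.151, adjusted p = 0.00141). Bmi1, a core PRC1 subunit, and Rybp, a subunit of variant PRC1, went the other way. Bmi1 averaged 88.5 ± 3.98 CPM in EuMyc Max KO against 50.7 ± 3.71 CPM in EuMyc (0.80, SE 0.0773, adjusted p = 8.81e-07), and Rybp 72.9 ± 2.90 CPM in EuMyc Max KO against 43.7 ± 3.07 CPM in EuMyc (0.74, SE 0.071, adjusted p = 8.77e-07). Rybp was also higher in Max KO than in WT (0.35, SE 0.0704, adjusted p = 0.0076). Of the 6 tested genes that remove the Polycomb marks, the deubiquitinase Bap1 and its partner Asxl1 fell in EuMyc Max KO against EuMyc (-0.74 and -0.51) and were higher in EuMyc than in WT (0.55 and 0.46). Of the 6 genes 1 rose and 3 fell in EuMyc Max KO against EuMyc, and 2 rose and 1 fell in EuMyc against WT. The demethylase Kdm6b averaged 65.8 ± 1.15 CPM in EuMyc Max KO against 89.8 ± 1.96 CPM in EuMyc. The demethylase Kdm6a, which is X-linked, averaged 137 ± 39.2 CPM in EuMyc Max KO, 73.5 ± 3.69 CPM in the all-male EuMyc group and 131 ± 30.7 CPM in WT, and was the gene that went the other way in both comparisons.

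Most partners of maintenance methylation moved in the direction of Dnmt1, and Uhrf1, Hells and Cdca7 did so by more than Dnmt1 in both main comparisons. Of 9 listed genes 7 were tested, and 6 rose and 1 fell in EuMyc against WT (median log2 fold change 2.31), while 1 rose and 5 fell in EuMyc Max KO against EuMyc (median -1.70), beside 36.7% of tested genes higher and 34.9% lower in the first comparison and 37.6% higher and 36.1% lower in the second. The exception in both was Zbtb24, at 41.2 ± 2.73 CPM in EuMyc Max KO, 29.8 ± 2.14 CPM in EuMyc, 46.0 ± 1.96 CPM in Max KO and 49.4 ± 2.82 CPM in WT. Uhrf1, which brings DNMT1 to newly replicated DNA, averaged 108 ± 38.5 CPM in EuMyc Max KO, 696 ± 69.8 CPM in EuMyc, 28.5 ± 3.97 CPM in Max KO and 47.0 ± 1.69 CPM in WT. It rose in EuMyc against WT by 3.89 on the log2 scale (SE 0.241, adjusted p = 1.74e-07) and was lower in EuMyc Max KO than in EuMyc by a log2 fold change of -2.69 (SE 0.226, adjusted p = 1.99e-06). Hells and Cdca7 form a chromatin remodeller needed for normal DNA methylation. Hells averaged 34.6 ± 0.784 CPM in EuMyc Max KO, 197 ± 24.9 CPM in EuMyc, 19.9 ± 1.57 CPM in Max KO and 30.3 ± 3.59 CPM in WT. Cdca7 averaged 37.3 ± 4.07 CPM in EuMyc Max KO, 301 ± 33.6 CPM in EuMyc, 21.3 ± 2.09 CPM in Max KO and 36.8 ± 4.87 CPM in WT. Both also fell in Max KO against WT (-0.60, SE 0.107, adjusted p = 0.00368, and -0.79, SE 0.122, adjusted p = 0.00194), the direction of Dnmt1 in that comparison, and both calls held under every alternative. Uhrf2 differed from Uhrf1 in that EuMyc Max KO kept most of the EuMyc level, at 98.4 ± 7.48 CPM in EuMyc Max KO, 129 ± 10.1 CPM in EuMyc, 55.0 ± 1.01 CPM in Max KO and 56.6 ± 1.90 CPM in WT (0.84 above Max KO, SE 0.0711, adjusted p = 9.3e-05).

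The 6 genes of methyl donor synthesis all fell in EuMyc Max KO against EuMyc (median log2 fold change -0.59; 36.1% of tested genes fell), and 5 of them rose in EuMyc against WT (median 0.54; 36.7% of tested genes rose). Mat2a, which makes the methyl donor S-adenosylmethionine, averaged 230.2 ± 19.2 CPM in EuMyc Max KO, 489 ± 26.6 CPM in EuMyc, 224 ± 16.7 CPM in Max KO and 243 ± 4.01 CPM in WT. Ahcy, which clears the product of methylation, averaged 22.6 ± 3.16, 99.2 ± 12.9, 16.9 ± 1.51 and 23.0 ± 5.56 CPM in the same order. In EuMyc Max KO against WT neither difference passed the test (-0.08, adjusted p = 0.48, and -0.02, adjusted p = 0.935). Among 8 genes listed as readers of methylated DNA or their relatives, Mbd3 included, 1 rose and 4 fell in EuMyc against WT. In EuMyc Max KO against EuMyc 3 rose and 2 fell. Of all tested genes 71.6% and 73.7% were called in these comparisons. Zbtb4, a repressor that binds methylated CpG, averaged 124 ± 3.22 CPM in EuMyc Max KO, 42.1 ± 2.77 CPM in EuMyc, 159 ± 5.93 CPM in Max KO and 167 ± 4.88 CPM in WT. Zbtb38 averaged 34.9 ± 1.61, 14.2 ± 1.08, 39.8 ± 2.75 and 40.2 ± 2.90 CPM in the same order. Mbd3, a subunit of the NuRD complex, went the other way at 89.6 ± 4.15, 189 ± 6.18, 82.7 ± 5.30 and 90.2 ± 5.06 CPM.

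Of 10 tested genes around TET action 3 were higher and 4 lower in EuMyc against WT, with the same counts in EuMyc Max KO against EuMyc, near the shares called among all genes (71.6% and 73.7%). Tdg, the glycosylase that removes the oxidised bases, was low throughout and averaged 2.09 ± 0.534 CPM in EuMyc Max KO, 5.88 ± 1.02 CPM in EuMyc, 1.83 ± 0.128 CPM in Max KO and 2.04 ± 0.0678 CPM in WT. Idh2, which makes the TET cosubstrate alpha-ketoglutarate, averaged 60.7 ± 7.42, 127 ± 9.07, 51.2 ± 6.66 and 40.5 ± 1.86 CPM in the same order. Gadd45g, linked to active demethylation, was lowest in EuMyc, as Tet2 was, at 20.6 ± 1.33, 3.47 ± 1.12, 26.7 ± 2.88 and 16.3 ± 1.98 CPM.

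**Figure D4:**
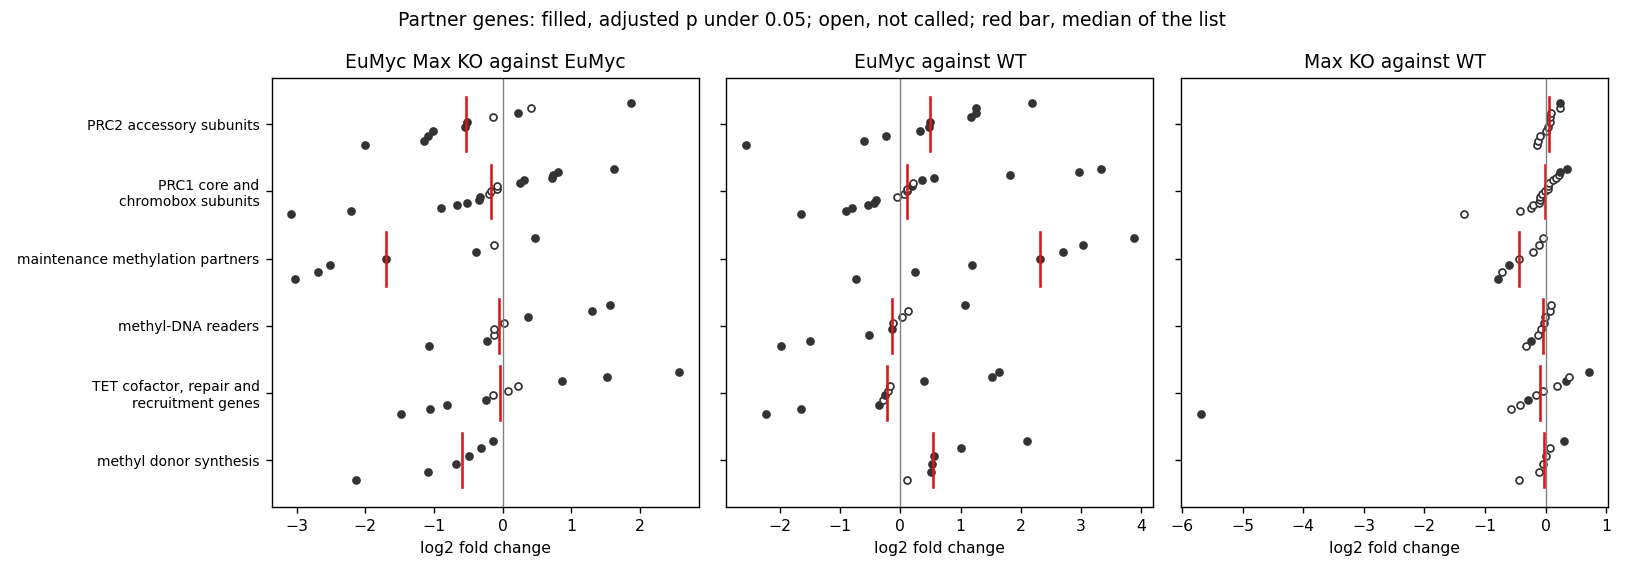
Log2 fold changes of the genes in 6 lists of partner genes, in EuMyc Max KO against EuMyc, EuMyc against WT and Max KO against WT; each point is a gene, filled where the adjusted p was under 0.05, and the red bar is the median of the list. Maintenance methylation partners have a median of 2.31 in EuMyc against WT and -1.70 in EuMyc Max KO against EuMyc.

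Most genes that PRC2 is known to silence were too low to test. Of 41 textbook Polycomb targets, the Hox genes and the Cdkn2a and Cdkn2b tumour suppressors, 5 were tested. The summed level over all 41 was 7.30 to 10.8 CPM in EuMyc Max KO, 14.5 to 15.8 CPM in EuMyc, 7.03 to 8.88 CPM in Max KO and 5.23 to 6.08 CPM in WT. Much of the EuMyc sum was Cdkn2a, which encodes the INK4A and ARF tumour suppressors, at 1.03 ± 0.680 CPM in EuMyc Max KO, 7.91 ± 1.57 CPM in EuMyc, 0.116 ± 0.0955 CPM in Max KO and 0.173 ± 0.114 CPM in WT. It was called higher in EuMyc than in WT (adjusted p = 1.25e-06) and lower in EuMyc Max KO than in EuMyc (log2 fold change -2.93, SE 0.431, adjusted p = 4.25e-05), with Ezh2 at its highest in the same EuMyc libraries. In Max KO against WT Hoxa3 was called, at 1.28 ± 0.550 CPM in Max KO against 0.173 ± 0.0541 CPM in WT (adjusted p = 0.00458), as the only one of the 5 (2 without WT library 3). Hoxa3 was higher and Cdkn2a lower in EuMyc Max KO against EuMyc, the call of Hoxa3 being lost without EuMyc Max KO library 3. In EuMyc against WT Cdkn2a and Hoxa7 were called higher, 1 of them without WT library 1 or 2 or EuMyc library 1 or 3. Cdkn2a, Hoxa3 and Hoxa7, 3 of the 5, were called higher in EuMyc Max KO against WT (median of the 5 log2 fold changes 1.88), where 27.8% of all tested genes were called. This count of 3 was 1 without WT library 1 and 0 with only these groups in the fit. Of 12 germline genes known to be silenced by promoter DNA methylation 3 were tested, and their sum over all 12 was 6.98 to 8.73 CPM in EuMyc Max KO, 7.44 to 12.2 CPM in EuMyc, 6.97 to 10.2 CPM in Max KO and 6.02 to 8.18 CPM in WT, ranges that overlapped. Of the 3 tested germline genes 1 was called lower in EuMyc Max KO against EuMyc, where 36.1% of all tested genes were called lower. The files hold no histone mark, DNA methylation or protein measurement.

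Proliferation markers differed between the groups as well. The summed level of 13 proliferation markers, among them the MCM helicase genes, was 3349.7, 2579.6 and 1427 CPM in EuMyc Max KO, 6881, 7953 and 6989 CPM in EuMyc, 605, 575 and 551 CPM in Max KO, and 879, 871 and 915 CPM in WT. The groups did not overlap, and their order was that of Ezh2. All 13 rose in EuMyc against WT and fell in EuMyc Max KO against EuMyc, and all 13 were higher in EuMyc Max KO than in Max KO. Of all tested genes 36.7% were called higher, 36.1% lower and 10.7% higher in those comparisons, in that order. In Max KO against WT 5 fell, where 7.74% of all tested genes were called lower. That count was 0 without WT library 1 and 11 with DESeq2. Among the 3 EuMyc Max KO libraries the markers, Ezh2 and Dnmt1 were highest in library 1 and lowest in library 3, and Tet2 had the reverse order. Macrophage and monocyte (5167, 3767 and 2608 CPM in libraries 1, 2 and 3), erythroid (2502, 1784 and 611 CPM) and neutrophil marker sums (254, 234 and 19.2 CPM) had that order too, and B lineage marker sums the reverse (14289.9, 15027 and 17079 CPM). Library 3 was also the only male of the group, and the part of these differences was not tested. Over the 12 libraries Pearson's r on the log2 scale was 0.986 between Ezh2 and Dnmt1, 0.982 between Ezh2 and Suz12, -0.962 between Ezh2 and Ezh1, -0.942 between Ezh2 and Tet2 and -0.391 between Ezh2 and Dnmt3a. These describe 4 groups that stand apart and share their scaling, and carry no p. The part of proliferation in the results was not tested.

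**Figure D5:**
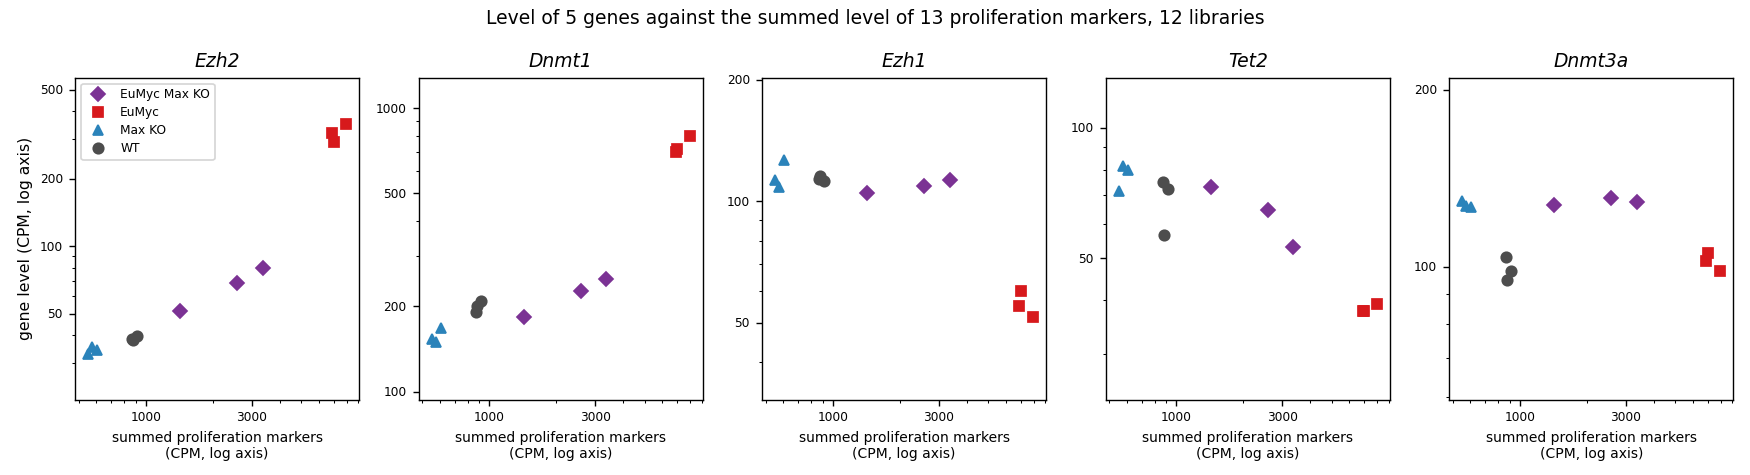
Levels of Ezh2, Dnmt1, Ezh1, Tet2 and Dnmt3a (CPM, log axis) against the summed CPM of 13 proliferation markers (log axis) in the 12 libraries, coloured by group. Ezh2 and Dnmt1 climb with the marker sum, which reaches 7953 CPM in EuMyc and is as low as 551 CPM in Max KO, Ezh1 and Tet2 are lowest in EuMyc, and Dnmt3a separates by Max genotype instead.

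Summed levels of markers of other cell types also differed between genotypes. Markers of pro-B and pre-B cells (8 genes, with Vpreb2 at 0 in Max KO and WT) summed to 72.7 to 109.7 CPM in EuMyc Max KO, 579 to 659 CPM in EuMyc, 62.1 to 89.8 CPM in Max KO and 80.1 to 89.3 CPM in WT, so that the group highest in Ezh2 and Dnmt1 was also highest in progenitor markers. T cell markers (7 genes) were lowest in EuMyc, at 149 to 159 CPM in EuMyc Max KO, 28.1 to 29.0 CPM in EuMyc, 154 to 174 CPM in Max KO and 99.3 to 120.5 CPM in WT. Macrophage and monocyte markers (10 genes) summed to 2608 to 5167 CPM in EuMyc Max KO, 768 to 1001 CPM in EuMyc, 2597 to 3575 CPM in Max KO and 1618 to 2046 CPM in WT. They were higher in Max KO than in WT, as Dnmt3a and Tet1 were, with 3 of 10 called (1 without WT library 1, 7 with DESeq2). They were lower in EuMyc than in WT, as Ezh1 and Tet2 were, with 9 of 10 called. Of all tested genes 7.27% were called higher in the first of these comparisons and 34.9% lower in the second. Dendritic cell markers (8 genes) were at 812 to 896 CPM in EuMyc Max KO, 329 to 371 CPM in EuMyc, 954 to 1245 CPM in Max KO and 851 to 943 CPM in WT. NK cell markers (6 genes) were at 30.2 to 40.3 CPM in EuMyc Max KO, 2.76 to 6.74 CPM in EuMyc, 26.4 to 41.7 CPM in Max KO and 15.4 to 25.9 CPM in WT. Erythroid markers (8 genes) were highest in EuMyc Max KO, at 611 to 2502 CPM, beside 525 to 587 CPM in EuMyc, 194 to 446 CPM in Max KO and 147 to 336 CPM in WT. Neutrophil markers (7 genes) were at 19.2 to 254 CPM in EuMyc Max KO, 9.25 to 14.6 CPM in EuMyc, 11.2 to 145 CPM in Max KO and 3.16 to 11.9 CPM in WT. The part of these cells in the results was not tested.

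For each member, genes with a similar pattern over the 12 libraries were sought among 9787 genes with a mean of at least 5 CPM, as a description with no test. Ezh2 was most like Whsc1, Recql4 and Rcc1 (Pearson's r 0.998, 0.998 and 0.997), Dnmt1 like Prim2, Kpnb1 and Ran (0.998, 0.997 and 0.996), and Ezh1, among others, like Rap1gap and Themis2 (0.995 and 0.994). Suz12 was most like Kpna3, Eed like Dhx15, Dnmt3b like Tmem11 and Tet2 like Nbeal1 (0.998, 0.995, 0.997 and 0.980). Tet1 and Tet3 had no close match, with 0.879 for Pogk and 0.854 for Cdc37l1 as their highest values. Dnmt3a was most like Stag3, a cohesin subunit of meiotic cells, Ciart, a clock repressor, and Chka, a choline kinase (0.989, 0.980 and 0.971). Stag3 had the Dnmt3a pattern over a far wider range, with 124 ± 4.22 CPM in EuMyc Max KO, 16.4 ± 2.54 CPM in EuMyc, 149.6 ± 5.10 CPM in Max KO and 12.1 ± 3.97 CPM in WT.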

How the data were processed

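RNA of B220+ spleen cells was measured in 12 libraries, 1 mouse each. Extraction used Trizol and a directZol kit, and library preparation was standard Illumina, as the labels state. The submitters' processing notes name bcl2fastq 1.8.4, TopHat2 2.1.0, HTSeq 0.6.1 and mm10; their roles, the annotation and the strand setting are not given there. The authors deposited raw counts of reads by gene symbol, as whole numbers without normalization. The 5 rows that name no gene were left out. As shares of a library's counts summed over all rows, these 5 included, reads outside genes were 12.5 to 20.3%, reads not unique 20.3 to 27.9% and ambiguous reads 0.748 to 1.45%.

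Groups came from the genotype labels. No 2 libraries of a group were alike within counting error (chi-square per degree of freedom 7.46 to 65.6), and the labels say that they are individual mice. Counts were fitted with edgeR 4.0.16 and limma 3.58.1 in R 4.3.3: filterByExpr, TMM, a robust quasi-likelihood model of the 4 groups over 12 libraries with 8 residual degrees of freedom, and Benjamini-Hochberg adjustment over 12878 genes. A gene was called at an adjusted p under 0.05. The biological coefficient of variation was 13.7%, and intervals are 95%. With 3 mice against 3 an exact permutation test cannot go below p = 0.1. The pipeline was tested on simulated data. Levels per kilobase divide CPM by GENCODE vM21 exon length. Likeness used log2 CPM with a prior count of 2. Alternatives were other scalings, no filter, DESeq2 1.42.0, a replicate block, pairwise fits, each library left out and, chosen after seeing the data, sex as a term.

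The 10 members, the 18 lists (199 genes) and the tests were chosen with earlier results of these data known. Named genes were all members, Max and Myc, up to 4 called genes with the smallest p per list and comparison (or, with none called, up to 2 of the highest CPM), and the 3 most alike genes per member, from which the text names a part. Some items are not reported here.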

Additional observations from a re-analysis of the deposited data

Results flagged for a closer look

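For 7 of the 10 genes the effect of losing Max differed between EuMyc cells and cells without the transgene by a test of the difference itself (edgeR quasi-likelihood, adjusted p under 0.05), beside 55.7% of all tested genes. The difference of the log2 fold changes was -2.09 for Ezh2, -1.40 for Dnmt1, -0.90 for Suz12, -0.89 for Dnmt3b, -0.53 for Eed, 0.94 for Ezh1 and 0.54 for Tet2. All 7 passed under each alternative run, sex as a term included. In EuMyc cells the effect was down for the first 5 and up for Ezh1 and Tet2. All 7 were called and did not overlap between the groups, where 73.7% of all tested genes were called and 75.9% did not overlap. In Max KO against WT Ezh2, Eed, Dnmt1 and Dnmt3b did not overlap, all below WT, where 38.1% of all tested genes did not overlap. Of the 7 only Dnmt1 was called, beside 15% of all tested genes, a call lost on leaving out any 1 of the 6 libraries. The EuMyc libraries differ from the others also in proliferation markers, progenitor markers and sex, whose part was not tested beyond the sex term.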

How the results depend on the processing

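Of 60 member values (10 genes, 6 comparisons), 44 kept their direction and their side of the threshold under every alternative. Of 1190 alternative values, 24 lost a call, 3 gained one and 16 changed sign, and no called value changed sign. Sign changes by scaling were -0.0860 (upper quartile) and -0.0628 (library totals) for Dnmt3a in EuMyc against WT, -0.0220 and -0.00679 in EuMyc Max KO against Max KO and 0.0640 and 0.0560 in the interaction, and -0.00561 for Tet3 in EuMyc Max KO against Max KO under the upper quartile. With 1 library left out the values ran from -0.0389 to 0.0718 for Ezh1 in Max KO against WT, -0.0802 to 0.0121 for Tet3 in EuMyc against WT, -0.00209 to 0.0962 for Eed and -0.00585 to 0.0599 for Tet3 in EuMyc Max KO against Max KO, -0.0651 to 0.0443 for Dnmt3b, -0.213 to 0.0207 for Tet2 and -0.151 to 0.189 for Ahcy in EuMyc Max KO against WT, and -0.0587 to 0.00519 for Dnmt3a in the interaction. The cause was not tested. Upper-quartile scaling moved the median of all genes by -0.11 in EuMyc against WT and 0.12 in EuMyc Max KO against EuMyc.

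Genes called numbered 1933 in Max KO against WT (808 to 2563 with 1 library left out), 1853 in EuMyc Max KO against Max KO (1057 to 2846, and 851 with only the 2 groups compared) and 3581 in EuMyc Max KO against WT (2379 to 4236). Members called in Max KO against WT numbered 1 to 3 with 1 library left out. In Max KO against WT 48.4% of calls were higher, beside 61.1% with library totals. In EuMyc Max KO against Max KO 74.4% were, beside 63.6% with the upper quartile.

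Replicate numbers did not pair the mice. Over 18 same-number pairs the deviations correlated at -0.117 to 0.344, 4 of them over 0.1. No library correlated best with its own number in all of the other groups. The replicate block left 1738 calls in Max KO against WT and 9440 in EuMyc Max KO against EuMyc, where Tet3 was no longer called (0.15, adjusted p = 0.05003). Of the other genes named, Myc, Bmi1, Bap1, Idh2 and Cxxc5 lost their call in Max KO against WT under the block. Tet1, at 117 to 330 reads per library, and Dnmt3b, at 200 to 626, had the fewest counts of the 10 genes. In Max KO against WT Tet1 had the widest SE of the 10 (0.158), beside 0.104 for Dnmt3b. The part of read counts in that SE was not tested.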
